A study of Mus musculus with 12 samples.

Results

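The 43 immunoglobulin variable segments described here are the genes of a mouse lung table whose names begin with Ighv (heavy chain), Igkv (kappa light chain) or Iglv (lambda light chain) and whose mean over 12 RNA sequencing libraries was at least 10 normalized units. They are 17 of 185 Ighv, 24 of 160 Igkv and 2 of 3 Iglv segments, that is 43 of the 348 variable segments and of the 49585 genes in the table. The lungs came from C57BL/6 mice that were wild type (WT) or labelled Has2+/-, a heterozygous loss of Has2, the gene of a hyaluronan-making enzyme. Each genotype was either given saline or sensitized to ovalbumin, a protein allergen, and then exposed to it through the nose; ovalbumin titles carry a time of 24 with no unit. There are 3 libraries in each of the 4 groups, numbered by the table. WT mice gave ovalbumin libraries 1 to 3 and saline libraries 4 to 6, and Has2+/- mice gave ovalbumin libraries 7 to 9 and saline libraries 10 to 12. The labels give no age or sex, do not say whether the loss is present in every cell, and do not say whether each library is a separate animal, so the p-values below measure only the spread between these libraries.

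An antibody is made of heavy and light chains, and the variable region of each chain is encoded by a V segment that a developing B cell joins to downstream D and J segments or, in light chains, to a J segment alone. Each B cell clone thereby uses a particular heavy and a particular light chain segment, and plasma cells, the antibody-secreting descendants of B cells, hold very large amounts of these transcripts. In airways exposed to an allergen, B cells and plasma cells gather around the bronchi and secrete antibody into the tissue and, by transport across the epithelium, into the lumen. In RNA from whole lung, fewer cells of a type and less RNA per cell cannot be told apart.

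The members were chosen by their mean over all 12 libraries, so their high values are a description and not a finding. All 43 also had a mean of at least 10 over the 6 ovalbumin libraries, but only 8 did over the 6 saline libraries: Igkv5-39, Igkv1-135, Igkv10-96, Igkv15-103, Igkv1-117, Igkv6-23, Igkv3-2 and Iglv3. Most were therefore chosen through the ovalbumin libraries, and counts or medians over the 43 are not evidence of a response to ovalbumin. Single libraries weighed heavily as well: without library 1 the mean of 29 of the 43 was still at least 10, without library 7 that of 34 and without library 2 that of 40. Just inside the limit lay Ighv1-9 with a mean of 10.1 and Igkv8-16 with 10.3, and just outside it Igkv3-4 with 9.81 and Ighv1-7 with 9.76. Of the 348 variable segments, 219 were above 0 in at least 1 library and 140 had a mean of at least 1.

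Values are the authors' normalized gene counts, on a scale that is identical in all libraries and sums to 6852201 in each. The depth behind a value cannot be recovered from it, and intervals for counting error are not given. Has2 itself was low, at 3.50 to 10.2 units in the 6 WT libraries and 5.75 to 11.2 in the 6 Has2+/- libraries. These ranges overlap, and since the deleted part of the gene is not given in the sources used here, Has2 does not check the genotype labels. Lung markers (surfactant, club cell, alveolar and endothelial genes) summed to 187807 to 196002 in WT with ovalbumin and to 209449 to 213796 in WT with saline. In Has2+/- they summed to 197010 to 220433 with ovalbumin and to 211285 to 217918 with saline. Library 3, WT with ovalbumin, stood apart from the other ovalbumin libraries in 10 genes of squamous epithelium. These were keratins, cornified-layer genes, Trp63 and Dsg3, and they summed to 28368 in library 3 and to 27.3 to 422 in the other 5. In the saline libraries this sum was 178.5 in library 12, 2016 in library 5 and 23383 to 35998 in the rest.

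All 43 segments are annotated as immunoglobulin V genes at coordinates identical to those of GENCODE release M21 on mm10, the build named in the submitters' processing notes. The heavy chain segments lie on chromosome 12 between 113716670 and 115981134, all on the minus strand. The kappa segments lie on chromosome 6 between 67609713 and 70699067, 12 on each strand, and the lambda segments on chromosome 16 between 19241207 and 19260859 on the minus strand. Each has 2 exons, a leader and the V exon, and none overlaps another annotated gene. V exons were 298 to 324 bases long, so values of different segments refer to nearly the same length. The stretches that follow are the last 90 bases of the V exon, 5′ to 3′ on the coding strand, for the segments that led a locus in libraries 1, 2 and 7 and for the lambda pair. Capitals mark the last in-frame cysteine codon, where the third hypervariable loop starts in the rearranged gene.
Ighv2-9-1, chr12:113769850-113769939, minus strand: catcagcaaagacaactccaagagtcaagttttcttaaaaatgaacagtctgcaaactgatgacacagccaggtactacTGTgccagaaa
Ighv4-1, chr12:113948282-113948371, minus strand: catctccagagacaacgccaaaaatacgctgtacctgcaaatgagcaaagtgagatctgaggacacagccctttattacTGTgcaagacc
Ighv14-2, chr12:113994469-113994558, minus strand: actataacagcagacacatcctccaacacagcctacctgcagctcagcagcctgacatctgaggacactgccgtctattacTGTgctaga
Igkv14-111, chr6:68256780-68256869, plus strand: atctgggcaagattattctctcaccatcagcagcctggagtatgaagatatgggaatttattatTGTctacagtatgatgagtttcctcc
Igkv1-110, chr6:68271178-68271267, plus strand: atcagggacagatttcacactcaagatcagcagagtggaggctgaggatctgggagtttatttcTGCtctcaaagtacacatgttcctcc
Igkv5-39, chr6:69900424-69900513, minus strand: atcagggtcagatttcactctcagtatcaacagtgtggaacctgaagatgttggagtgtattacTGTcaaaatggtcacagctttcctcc
Iglv2, chr16:19260401-19260490, minus strand: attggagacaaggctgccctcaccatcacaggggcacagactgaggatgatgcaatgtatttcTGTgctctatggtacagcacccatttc
Iglv3, chr16:19241207-19241296, minus strand: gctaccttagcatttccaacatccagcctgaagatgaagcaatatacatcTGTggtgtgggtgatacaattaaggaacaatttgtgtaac

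In 42 of the 43 segments a TGT or TGC codon of the reading frame begins within the last 30 bases of the V exon, and in Iglv3 the last one begins 40 bases before the end. These are germline sequences of the reference genome: the deposited values give no junction, no mutation and no pairing of heavy with light chains.

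Segments of a locus resemble each other closely, which bears on how far their values can be separated. Over the V exon, pairs of heavy chain members were 53.3% to 96.1% identical (median 65.4%), and pairs of kappa members 55.9% to 98.0% (median 64.8%). Of the 43, 25 had another segment at 95% identity or more, and for 15 this was another member. Only the 218 segments with a V exon coding sequence were compared, so near-copies among the rest of the table would be missed. How reads that fit several segments were assigned is not given in the sources used here, so the split of such values among near-copies is uncertain. The closest pair of members, Igkv17-127 and Igkv17-121, is shown in full because it differs at only 6 of 298 bases, which are the capitals below.
Igkv17-127, chr6:67861362-67861659, plus strand: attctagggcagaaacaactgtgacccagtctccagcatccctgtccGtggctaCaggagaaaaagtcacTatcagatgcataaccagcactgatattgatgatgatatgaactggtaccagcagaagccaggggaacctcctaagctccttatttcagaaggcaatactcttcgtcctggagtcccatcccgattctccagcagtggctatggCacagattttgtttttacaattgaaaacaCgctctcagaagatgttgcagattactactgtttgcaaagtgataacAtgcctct
Igkv17-121, chr6:68037021-68037318, plus strand: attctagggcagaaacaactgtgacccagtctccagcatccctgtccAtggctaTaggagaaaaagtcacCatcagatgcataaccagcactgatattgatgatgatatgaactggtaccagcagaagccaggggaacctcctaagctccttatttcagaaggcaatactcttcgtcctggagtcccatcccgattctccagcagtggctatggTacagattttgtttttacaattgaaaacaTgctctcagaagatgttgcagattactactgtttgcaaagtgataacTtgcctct

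The longest run of bases that these kappa segments share is 143. Their values nevertheless differed: Igkv17-127 stood at 173 units in library 7 and 3.08 in library 9, and Igkv17-121 at 34.8 and 43.7. Of the leading segments, Ighv4-1 (nearest segment 76.5% identical), Igkv14-111 (90.9%), Igkv5-39 (91.6%) and Ighv2-9-1 (94.1%) had no near-copy at 95% among the 218 compared. By contrast, Ighv14-2 is 97.0% identical to Ighv14-1, Igkv1-110 is 96.8% identical to Igkv1-117 and Iglv2 is 97.0% identical to Iglv1.

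Summed over all 348 segments, a quantity the limit of 10 did not shape, variable segment RNA spanned a wide range among the ovalbumin libraries. The sums were 4162, 2557 and 296 in WT with ovalbumin, 483, 707 and 603 in WT with saline, 3684, 482 and 1418 in Has2+/- with ovalbumin, and 316, 422 and 596 in Has2+/- with saline. Libraries 1, 2, 7 and 9 lay above all 6 saline libraries, whereas library 3 lay below all of them and library 8 within their range. The treatment groups therefore overlapped in both genotypes. The 43 members made up 47.6% to 68.4% of these sums.

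Heavy and kappa chain sums followed the same order of libraries at the upper end. All Ighv segments summed to 1988, 1158 and 119 in WT ovalbumin libraries 1 to 3, 195, 264 and 245 in WT saline libraries 4 to 6, 1752, 206 and 577 in Has2+/- ovalbumin libraries 7 to 9, and 119, 171 and 210 in Has2+/- saline libraries 10 to 12. All Igkv segments summed to 2144, 1363 and 167, then 257, 416 and 330, then 1894, 258 and 764, and then 180, 230 and 351 in the same order. Lambda chain sums were small throughout, from 10.9 in library 3 to 76.2 in library 9, with the saline libraries at 17.2 to 34.1. Lambda segments accordingly made up 1.38%, 2.62% and 1.95% of the summed light chain segments in libraries 1, 2 and 7, and 6.15% to 10.7% in the other 9. Library 9 had a high light chain sum together with a lambda share of 9.07%.

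**Figure D1:**
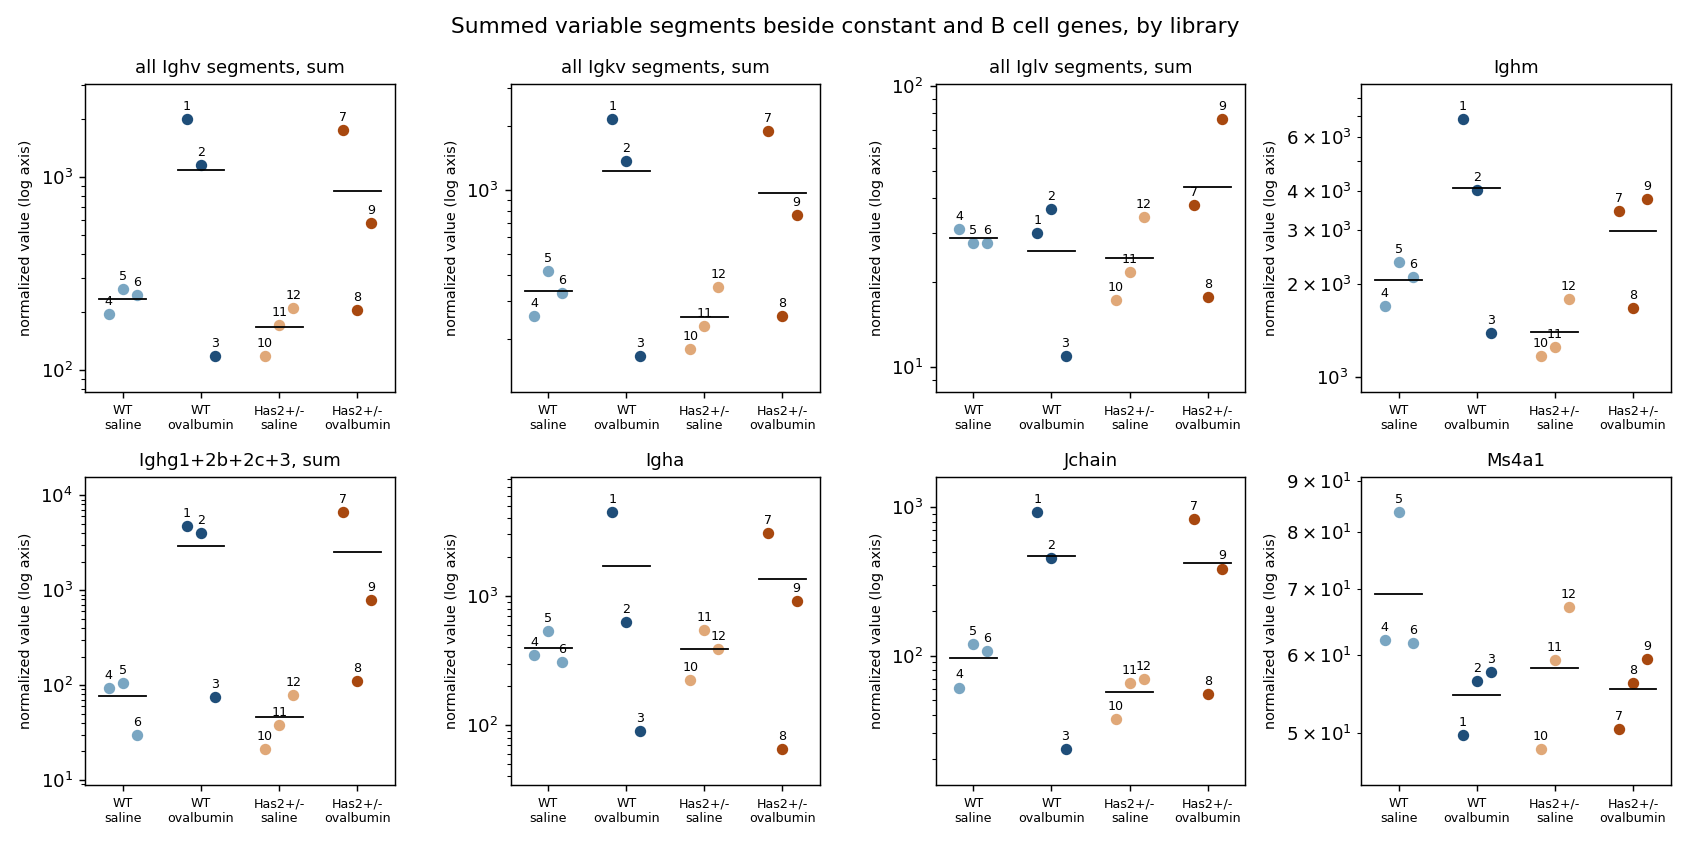
Summed variable segments and single antibody or B cell genes in normalized units (log axes), 1 panel per quantity, with the 4 groups along the horizontal axis. Points are libraries with their numbers and bars are group means (n = 3). Libraries 1, 2, 7 and 9 lie above the saline libraries in the Ighv, Igkv, IgG and Jchain panels, while libraries 3 and 8 do not in the Ighv, Igkv, Igha and Jchain panels and no ovalbumin library is above the saline range for Ms4a1.

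Segment by segment the same libraries stood out. Of the 43 members, 39 were above all 6 saline libraries in library 1, 33 in library 2, 31 in library 7 and 28 in library 9, against 2 in library 3 and 8 in library 8. Library 3 was below both other WT ovalbumin libraries for all 43 members, and library 8 below both other Has2+/- ovalbumin libraries for 35. The median member stood at 56.8, 18.6 and 3.33 units in WT with ovalbumin, at 5.17, 5.58 and 6.17 in WT with saline, at 25.0, 4.75 and 16.2 in Has2+/- with ovalbumin, and at 3.00 to 6.5 in Has2+/- with saline. Most members reached the limit of 10 only through the ovalbumin libraries, so these counts are a description and not evidence of a response to ovalbumin.

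**Figure D2:**
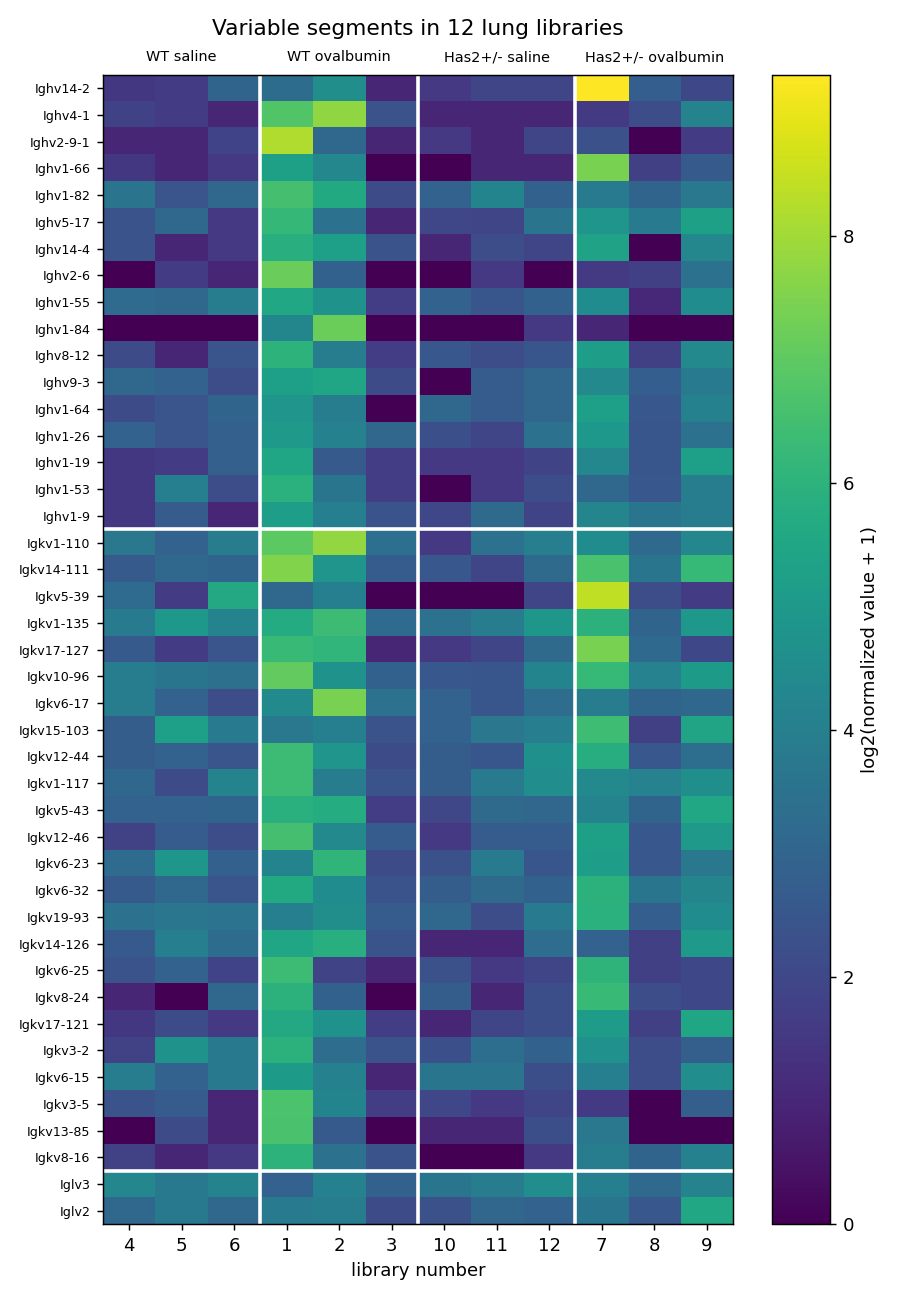
The 43 members (rows, by locus and then by mean) in the 12 libraries (columns, by group); color is log2(normalized value + 1). Bright cells concentrate in libraries 1, 2, 7 and 9, and the brightest, such as Ighv14-2 in library 7 at 633 units and Ighv2-9-1 in library 1 at 293.5, belong to 1 library each.

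Different segments led in different libraries. In the heavy chain locus the highest member by mean was Ighv14-2, at 633 units in library 7, 23.2 in library 2 and 8.83 in library 1. Its other 9 values lay between 1.00 and 6.92, so that library 7 held 91.3% of its 12-library sum. Library 1 was led by Ighv2-9-1 with 293.5 units, followed by Ighv2-6 with 143.5. Ighv2-9-1 reached at most 7.75 elsewhere and was listed at 0 in library 8, and library 1 held 92.1% of its sum. Library 2 was led by Ighv4-1 with 217 units, followed by Ighv1-84 with 146.

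Ighv4-1 was also high in library 1, at 108 units, and stood at 17.1 in library 9, whereas its other 9 values lay between 1.00 and 4.25. Ighv1-84 showed the fewest libraries with signal: 146 in library 2, 18.5 in library 1, 1.92 in library 12 and 1.00 in library 7, with the other 8 libraries listed at 0. The leading segments of libraries 9 and 8, both Ighv5-17, were at 38.1 and 13.4 units, and that of library 3, Ighv1-26, was at 7.50. In the saline libraries the leading heavy segment reached 7.67 to 33.5 units, and in WT with saline it was not a member (Ighv1-81, Ighv1-76 and Ighv10-3 in libraries 4, 5 and 6). Among the Has2+/- saline libraries it was Ighv1-64, Ighv1-82 and Ighv5-17.

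Ighv1-66 stood at 171 units in library 7, 38.1 in library 1 and 18.6 in library 2. It was between 0 and 5.17 in the rest. Ighv1-82 had signal in every library, from 3.33 in library 3 to 92.4 in library 1, with 4.42 to 17.3 in the saline libraries. By family, 9 of the 93 Ighv1 segments of the table were members, 2 of 4 Ighv14, 2 of 11 Ighv2, 1 of 2 Ighv4, 1 of 22 Ighv5, 1 of 16 Ighv8 and 1 of 4 Ighv9.

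Kappa segments likewise changed leaders between libraries. Igkv1-110 had the highest mean, with 124.5, 221 and 9.58 units in WT with ovalbumin, 11.8, 6.67 and 14.2 in WT with saline, 22.1, 8.0 and 18.9 in Has2+/- with ovalbumin, and 1.92, 10.1 and 14.9 in Has2+/- with saline. It led library 2, and groups overlapped in both genotypes through libraries 3 and 8. Igkv14-111 led library 1 with 188 units and library 9 with 74.0, stood at 98.5 in library 7 and 27.9 in library 2, and lay between 2.83 and 11.2 in the others. Its 3 Has2+/- ovalbumin values, 98.5, 11.2 and 74.0, were all above the Has2+/- saline values of 4.83, 2.83 and 8.25.

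Igkv5-39 led library 7 with 342 units, 79.2% of its 12-library sum, and was the member with the widest spread (SD of 2.49 on the log2(value + 1) scale). It also led WT saline library 6 with 47.8 units, above all 3 WT ovalbumin libraries, and was listed at 0 in libraries 3, 10 and 11. Igkv1-135 was measured at 6.92 to 82.9 units and never fell to 0. Igkv17-127 was at 173 units in library 7, 77.8 in library 1 and 68.9 in library 2, with the remaining libraries at 1.00 to 8.25. Igkv6 was the family with the most kappa members, 5 of 9, whereas none of the 33 Igkv4 segments was a member.

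The lambda pair peaked in other libraries than the heavy and kappa members. Iglv3 had the smallest spread of the 43 (SD of 0.55 on the log2 scale) and its highest value, 22.8 units, in saline library 12. It stood at 6.67, 16.2 and 6.5 in WT with ovalbumin and at 18.9, 12.8 and 17.1 in WT with saline. The value in library 1, the library with the most variable segment RNA, was thus below every WT saline value. Iglv2 peaked in library 9 at 46.9 units and lay between 3.42 and 13.9 elsewhere. These differences were not past the threshold: Iglv3 differed between WT treatments by -0.78 ± 0.39 (SE) on the log2 scale with an adjusted p of 0.197, and Iglv2 between Has2+/- treatments by 1.15 ± 0.67 with 0.368 (limma). Iglv2 and Iglv3 were the only members with their highest library outside 1, 2 and 7, where 24, 8 and 9 members peaked.

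The share of a locus taken by its leading segment differed among libraries. Ighv14-2 made up 36.1% of all heavy chain segment signal in library 7, Ighv4-1 18.7% in library 2 and Ighv2-9-1 14.8% in library 1. In libraries 3, 8 and 9 the leading heavy segment made up 6.33%, 6.51% and 6.60%, and in the saline libraries 5.27% to 13.7%. Library 9 thus had more heavy chain signal than any saline library with a leading share inside their range. For kappa chains the leading shares were 18.1% for Igkv5-39 in library 7, 16.2% for Igkv1-110 in library 2, 8.78% and 9.68% for Igkv14-111 in libraries 1 and 9, and 5.68% to 14.5% in the saline libraries. Over all 43 members, 11 had more than 50% of their 12-library sum in 1 library, with a median of 37.1% and a lowest share of 13.7% for Iglv3.

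**Figure D3:**
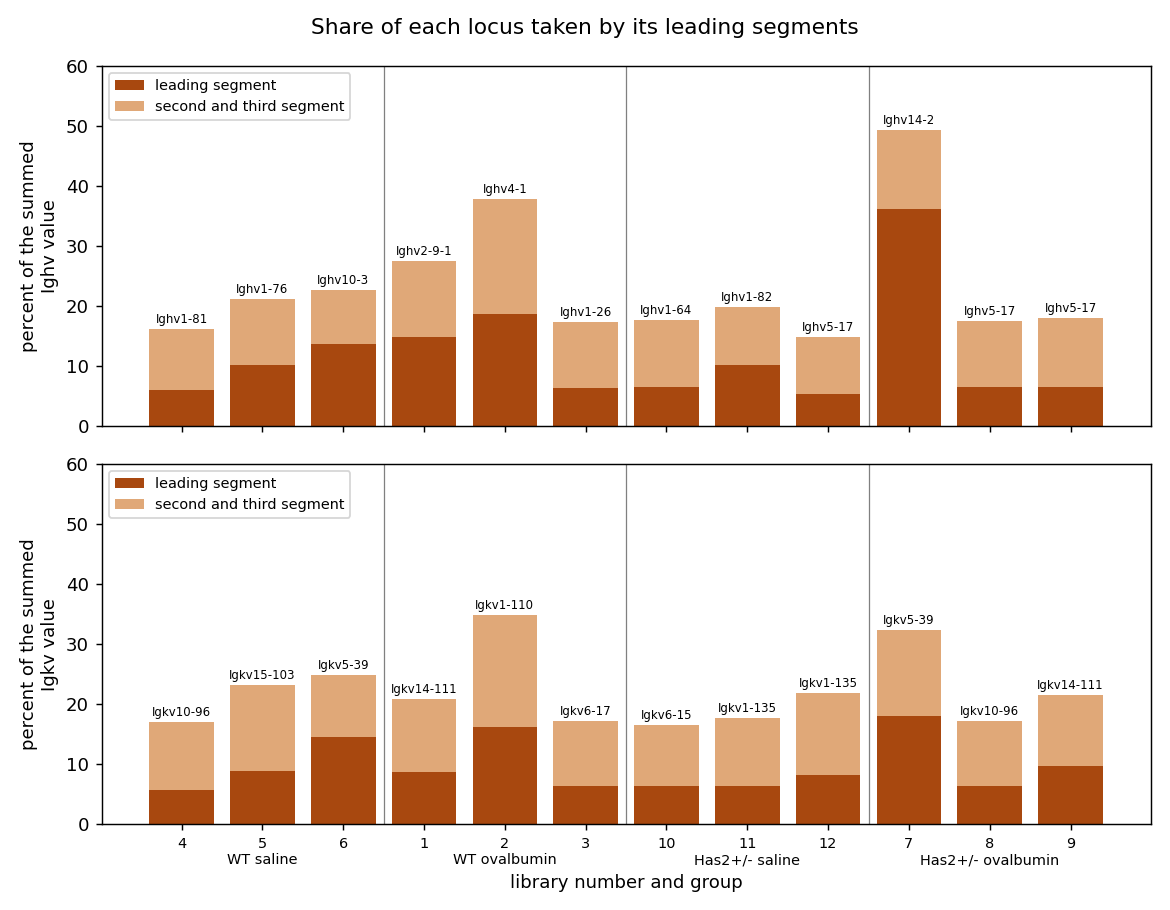
Percent of the summed heavy chain (top) and kappa chain (bottom) segment value taken by the leading segment, which is named above each bar, and by the next pair of segments. Bars are single libraries in group order; library 7 has the largest leading share at both loci, 36.1% for Ighv14-2 and 18.1% for Igkv5-39.

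The comparison of ovalbumin with saline asks how the response to the allergen changes the lung. In WT lungs 3 members were higher and none lower at an adjusted p under 0.05, tested with limma on log2(value + 1) over 19017 genes; over all genes, 8.65% were called higher and 8.05% lower. Igkv8-16, a kappa segment, stood at 64.2, 10.2 and 4.25 units with ovalbumin and at 2.58, 1.00 and 1.92 with saline. All its ovalbumin values were above its saline values, with a log2 change of 2.51 ± 0.76 (SE, n = 3 per group) and an adjusted p of 0.0359. Ighv4-1 was at 108, 217 and 4.25 units against 2.58, 2.08 and 1.00, also without overlap, with a log2 change of 4.15 ± 1.22 and an adjusted p of 0.0452. Ighv1-9 was at 36.0, 15.2 and 4.25 units against 1.83, 5.58 and 1.00, where the values overlap, with a log2 change of 2.13 ± 0.63 and an adjusted p of 0.0311.

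These calls were fragile. No member was called without library 1, without library 2, without library 4 or without library 6, and only Ighv1-9 was without library 5. Without library 3, 16 members were called higher, among them the same 3, against 8.94% of all genes in that fit. The choice of members through the ovalbumin libraries favours such calls, so the 16 are a description of these fits only. In the fit without library 3, Ighv4-1 changed by 5.78 (adjusted p 0.000107), Ighv1-82 by 3.05 (0.000977) and Igkv1-110 by 3.87 (0.00412). Ighv1-84, which is listed at 0 in all 3 WT saline libraries, had an adjusted p of 0.000336. Over the 19 alternative settings the adjusted p of Ighv4-1, Ighv1-82, Igkv1-110 and Ighv1-84 ranged up to 0.178, 0.621, 0.386 and 0.279. Library 3 is the ovalbumin library with the high squamous epithelium sum given above, and the part of that material in its low variable segment values was not tested. Library 8, also low in variable segments, had a squamous sum of 143.

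The remaining 40 members did not pass in WT. An unadjusted p under 0.05 was reached by 7 members, all higher, beside 14.5% of all genes higher at that level. Log2 changes of the 43 ran from -1.13 for Igkv5-39 to 4.15 for Ighv4-1 with a median of 1.51, beside a median of -0.03 over all genes, and 38 were above 0. The typical standard error of a member was 1.11 on this scale. Groups did not overlap for 3 members, Ighv4-1, Igkv8-16 and Ighv1-26, beside 16.2% of all genes that were higher without overlap. Since most members were chosen through the ovalbumin libraries, these counts and the median are not evidence of a response to ovalbumin.

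In Has2+/- lungs Igkv8-16 was the only member called, at 14.2, 6.92 and 16.2 units with ovalbumin and 0, 0 and 1.92 with saline. The log2(value + 1) change was 3.15 ± 0.76 (SE, n = 3 per group) with an adjusted p of 0.0441, beside 1.85% of all genes called higher and 0.952% lower. The call was lost when library 2 or any of libraries 4 to 11 was left out, with an adjusted p of up to 0.183 over the alternatives. Ighv1-19 joined it when library 1 was left out, with an adjusted p of 0.0362, against 0.188 in the fit of all libraries; without library 1, 2.83% of all genes were called higher. At an unadjusted p under 0.05, 4 members were higher beside 10.5% of all genes.

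In this genotype 11 of 43 members were higher in every ovalbumin library than in any saline library, beside 13.2% of all genes. They include Ighv14-2, at 633, 5.83 and 3.08 units against 1.92, 2.83 and 2.83, with a log2 change of 2.90 ± 1.79 and an adjusted p of 0.423. They also include Ighv1-66, at 171, 2.42 and 5.17 against 0, 1.00 and 1.00, with a change of 3.28 ± 1.66 and an adjusted p of 0.326. In both segments library 7 was far above the other Has2+/- libraries. The median log2 change of the 43 was 1.37, beside 0.01 over all genes, and 38 were above 0. Most members were chosen through the ovalbumin libraries, which favours higher ovalbumin values. The 11, the median and the 38 are therefore not evidence of a response to ovalbumin.

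**Figure D4:**
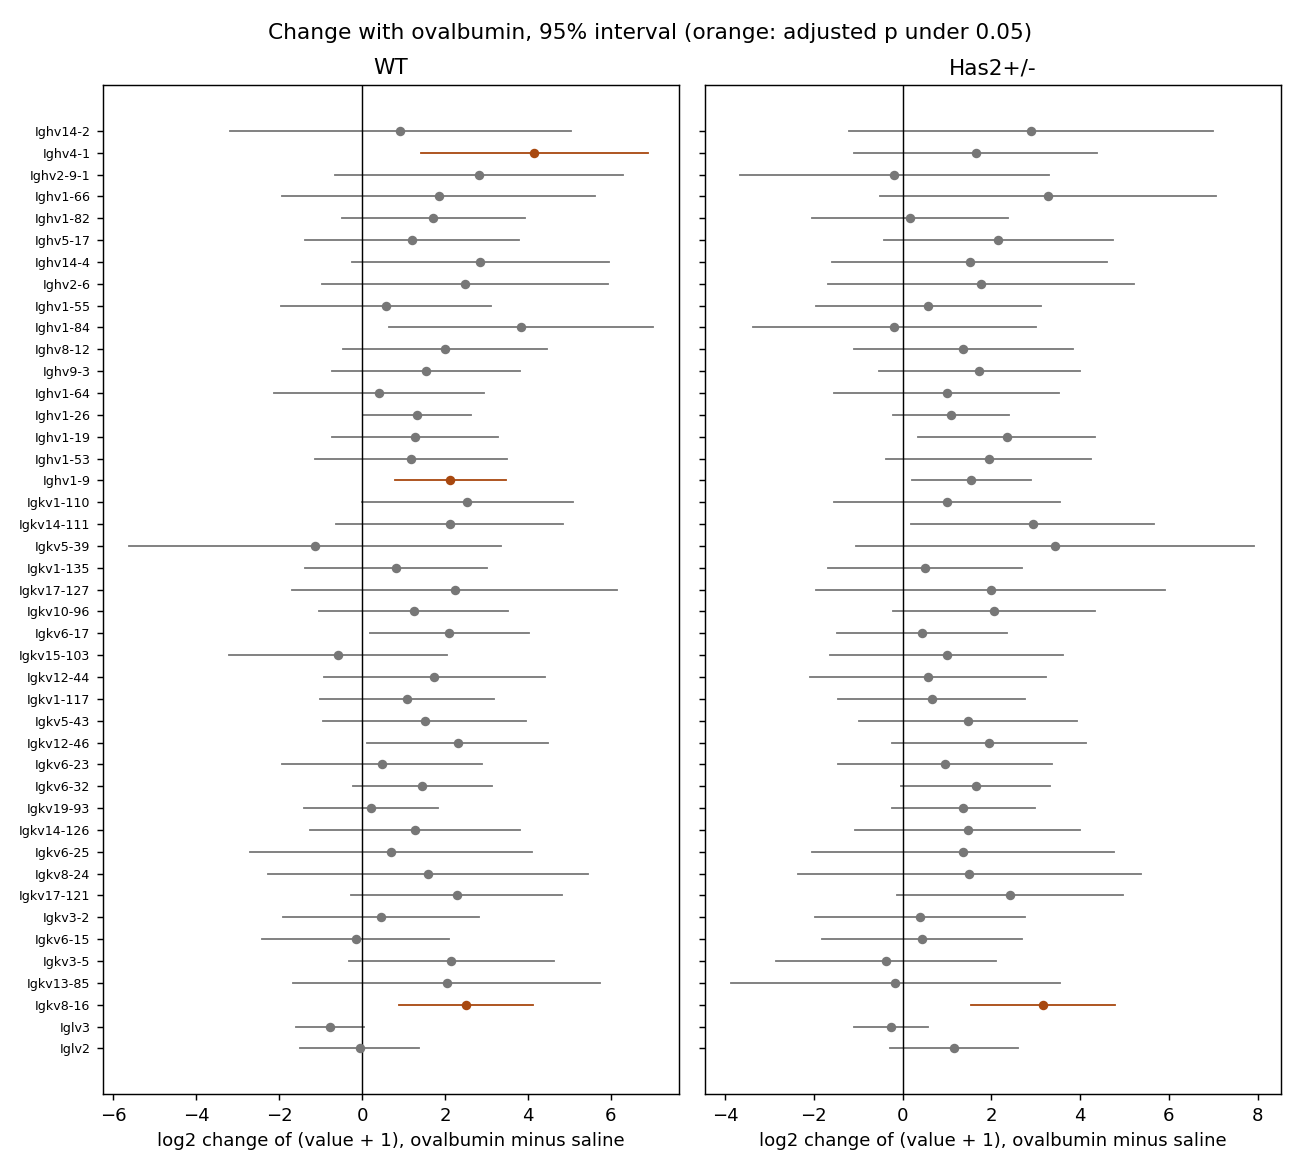
Log2 change of (value + 1) with ovalbumin for each member in WT (left) and Has2+/- (right); points are limma estimates, lines 95% intervals, and orange marks an adjusted p under 0.05. In WT, Ighv4-1, Ighv1-9 and Igkv8-16 are orange, and in Has2+/- only Igkv8-16 is; most other intervals cross 0.

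Whether the Has2+/- genotype changed the segments was compared under each treatment and as an interaction. Under saline no member was called by limma and none reached an unadjusted p under 0.05, beside 0.0105% of all genes called higher and 0.0% lower, and 2.61% higher and 3.01% lower at the unadjusted level. Ighv1-55 (8.58, 7.92 and 14.2 units in WT against 6.67, 4.67 and 6.5 in Has2+/-) and Iglv2 (7.67, 12.8 and 7.83 against 3.92, 7.33 and 6.58) were lower without overlap, beside 6.32% of all genes. Under ovalbumin no member was called either, beside 0.589% of all genes higher and 0.363% lower. Before adjustment 3 members had a p under 0.05, all lower in Has2+/-, namely Ighv1-84, Ighv4-1 and Igkv3-5, beside 6.43% of all genes lower at that level, and the smallest adjusted p was 0.272.

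Igkv3-5 stood at 101, 17.4 and 2.25 units in WT with ovalbumin and at 2.00, 0 and 6.00 in Has2+/- with ovalbumin, which overlap. Without library 3, Ighv4-1 (log2 change -4.61, adjusted p 0.00586), Ighv1-84 (-5.41, 0.00713) and Ighv1-82 (-2.60, 0.0296) were called lower in Has2+/- than in WT under ovalbumin, beside 0.204% of all genes lower in that fit. Over the alternatives their adjusted p ranged up to 0.555, 0.526 and 0.89. For the interaction, the Has2+/- change minus the WT change, no member was called and none reached an unadjusted p under 0.05; the smallest adjusted p was 0.628, and 0.00526% of all genes were called higher and 0.0105% lower (5.1% and 3.45% unadjusted). The 95% intervals are wide: that of Ighv4-1 under ovalbumin ran from -5.72 to -0.25, and that of Ighv14-2 from -2.37 to 5.85.

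Variable segments under the limit of 10 give the same comparison at lower levels. Of these 305, 122 reached a mean of 1 in some group and were tested; 9 were called higher and none lower in WT, whereas in Has2+/- 2 were called, both higher. These counts stand beside 8.65% of all tested genes called higher in WT and 1.85% in Has2+/-. In this fit neither share is above that of all genes. The limit of 10 had removed segments mostly through their ovalbumin values. A low share among the rest is therefore partly built in and is not evidence of a missing response. With 1 library left out, the WT count ran from 1, without library 1 or 2, to 23, without library 3. The 23 stand beside 8.94% of all genes called higher in that fit. The Has2+/- count ran from 2 to 3. Ighv1-11 rose in both, by 2.82 ± 0.56 (SE) in WT with an adjusted p of 0.00365 and by 3.74 ± 0.56 in Has2+/- with 0.0044. Ighv6-3 also rose in both, by 1.54 ± 0.48 with 0.0361 and by 2.90 ± 0.48 with 0.00694; its WT call was lost without any 1 of libraries 1, 2, 4, 5 and 6 (adjusted p up to 0.15 over the alternatives). The median log2 change of the 122 was 0.61 in WT and 0.72 in Has2+/-, beside -0.03 and 0.01 over all genes.

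Constant region genes encode the rest of each chain and set the antibody class, so that they report on the same transcripts at their other end. Ighm, the IgM heavy chain, stood at 6836, 4020 and 1395 units in WT with ovalbumin, 1702, 2366 and 2105 in WT with saline, 3461, 1675 and 3776 in Has2+/- with ovalbumin, and 1173, 1253 and 1788 in Has2+/- with saline. The 4 IgG genes Ighg1, Ighg2b, Ighg2c and Ighg3 together were at 4732, 4000 and 74.5, then at 93.8, 105 and 29.7, then at 6598, 110 and 788, and then at 21.1, 38.2 and 78.8. Libraries 1, 2, 7 and 9 were again highest. Library 8 lay just above all saline libraries for these IgG genes and library 3 within their range.

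Igha, the IgA heavy chain, was at 4443, 630 and 90.3 units in libraries 1 to 3 and at 3081, 65.0 and 907 in libraries 7 to 9, against 222 to 547 in the saline libraries, which were all above libraries 3 and 8. Of the 13 constant genes 10 could be tested, and none was called higher in either genotype in the fit of all libraries. Over all genes, 8.65% were called higher in WT and 1.85% in Has2+/-. In WT, 2 were called higher without library 3 (Ighg1 and Ighg2c, adjusted p 0.0105 and 0.0418), beside 8.94% of all genes in that fit. Without library 8, 1 was called higher (Ighg1, 0.0429), and in Has2+/- none with any library left out. Ighg1 was closest in WT, with a log2 change of 5.21 ± 1.62 (SE) and an adjusted p of 0.0647. Ighd, the IgD heavy chain of B cells that have not yet switched class, fell by 0.65 in WT (SE 0.13, adjusted p 0.00393), from 370, 412 and 364 units to 259, 225 and 244. In Has2+/- its change was -0.44 ± 0.13 with an adjusted p of 0.0769. Ighe, the IgE heavy chain, was at 0 to 1.42 units.

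Light chain constant genes did not mirror the variable segments in level. Igkc, the only kappa constant gene, stood at 0 to 17.3 units while the kappa segments summed to 167 to 2144. In the annotation Igkc (chromosome 6, 70726435 to 70726966) lies within a long noncoding RNA gene on the same strand, called Gm43291 in the table; how reads in overlapping genes were counted is not given in the sources used here, and the part of the overlap in the low Igkc values was not tested. Iglc2, a lambda constant gene, was at 50 to 163 units and, like Iglv2, was highest in library 9. Iglc1, Iglc3 and Iglc4 were at 0 to 2.83 units.

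Genes of antibody-secreting cells were read beside the segments. Jchain, the joining chain of IgM and IgA polymers, was at 922, 454 and 23.4 units in WT with ovalbumin, 61.0, 119 and 108 in WT with saline, 829, 55.3 and 386 in Has2+/- with ovalbumin and 37.2, 65.0 and 69.4 in Has2+/- with saline. It was not called in either genotype (adjusted p 0.612 and 0.439). Over all genes, 8.65% were called higher in WT and 1.85% in Has2+/-. Of 12 plasma cell genes, 3 rose and none fell in WT, and 2 rose and none fell in Has2+/-. In WT these were Fkbp11, an endoplasmic reticulum prolyl isomerase, by 1.64 ± 0.34 (SE, adjusted p 0.0043), Derl3, of degradation of misfolded proteins, by 1.56 ± 0.40 (0.0143), and Xbp1, a transcription factor of secretory cells, by 0.50 ± 0.09 (0.00162). In Has2+/- they were Derl3, by 1.57 ± 0.40 (0.0479), and Xbp1, by 0.35 ± 0.09 (0.0445). With 1 library left out the Has2+/- count ran from 0 to 2, and it was 0 without any 1 of libraries 2, 4, 5, 6, 7, 10, 11 and 12. Over the 19 alternatives the Has2+/- call of Derl3 was lost in 14 (adjusted p up to 0.226) and that of Xbp1 in 11 (up to 0.201). In WT the count was 2 to 3 with 1 library left out, and the Derl3 call was lost without library 1 or 4.

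These 3 genes did not share the low values of library 3. They are also expressed by other secretory cells, and which cells carried their rise was not tested. In library 3 Derl3 stood at 20.0 units, against 8.33 to 12.2 in WT with saline, and Fkbp11 at 20.0 against 8.33 to 11.3. Of the same list, Jchain, Mzb1 and Tnfrsf13b were below every WT saline value in library 3. Mzb1 stood there at 20.1 units against 24.8 to 38.25. The median log2 change of the 12 genes was 0.55 in WT and 0.30 in Has2+/-, beside -0.03 and 0.01 over all genes.

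Markers of mature B cells showed no rise, and most were lower with ovalbumin. Log2 changes were below 0 for 11 of 12 genes in WT (median -0.33) and for 10 in Has2+/- (median -0.21). Over all genes the medians were -0.03 and 0.01, with 8.05% called lower in WT and 0.952% in Has2+/-. Of 12 genes none was called higher; Cd79b, a chain of the B cell receptor complex, fell by 0.48 in WT (adjusted p 0.0116) and Ebf1, a B lineage transcription factor, fell by 0.33 in WT (0.0173) and by 0.39 in Has2+/- (0.0295). The calls did not hold in every fit that left out 1 library. None of the 12 genes was called in WT without library 2 or 5, nor in Has2+/- without library 7, 10, 11 or 12. Over the alternatives the adjusted p of Cd79b in WT reached 0.0619, and that of Ebf1 reached 0.0694 in WT and 0.143 in Has2+/-. Ms4a1, which encodes a B cell surface protein, stood at 49.7, 56.4 and 57.6 units in libraries 1 to 3 and at 50.4, 56.2 and 59.3 in libraries 7 to 9, against 48.1 to 83.7 in the saline libraries, so that no ovalbumin library lay above the saline range. The recombination genes were near 0: Rag2 was listed at 0 in all 12 libraries and Rag1 in all but library 8, at 1.5, and none of the 5 testable precursor genes of 8 was called.

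Among 10 germinal centre and class switch genes, 9 were tested. In WT 1 was called higher and 1 lower, beside 8.65% and 8.05% of all genes. In Has2+/- none was called higher and 1 lower, beside 1.85% and 0.952%. Il21, a T cell cytokine that acts on B cells, was higher in WT (adjusted p 0.0261), at 2.33, 4.0 and 3.42 units, and is listed at 0 in each saline library. The call was lost when any 1 of libraries 1 to 6 was left out and without libraries 3 and 12 (adjusted p up to 0.0734). Bcl6, a germinal centre regulator that other cells also express, fell by 0.28 in WT (adjusted p 0.0136) and by 0.34 in Has2+/- (0.02). The WT call was lost without library 6 and without libraries 3 and 12 (up to 0.0671), and that in Has2+/- without library 7, 8, 10 or 11 (up to 0.0911).

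Of 13 genes that attract or sustain B cells, 5 rose and 1 fell in WT, and 3 rose and none fell in Has2+/-. Over all genes, 8.65% were called higher and 8.05% lower in WT, and 1.85% and 0.952% in Has2+/-. Cxcl13, a chemokine that draws B cells into follicles, stood at 105, 61.6 and 50.8 units in WT with ovalbumin against 15.2, 24.9 and 20.6 with saline, and at 75.1, 48.9 and 46.8 in Has2+/- with ovalbumin against 17.8, 20.0 and 20.1. It rose without overlap in both genotypes, by 1.75 ± 0.27 (SE, adjusted p 0.000796) in WT and by 1.48 ± 0.27 (0.0124) in Has2+/-, libraries 3 and 8 included. Tnfsf13b, which encodes the B cell survival factor BAFF, rose by 0.44 ± 0.10 (0.00762) in WT and 0.40 ± 0.10 (0.0446) in Has2+/-. The others were Ccl19, Il6 and Ltb in WT, by 1.97, 2.83 and 0.43, and Lta in Has2+/-, by 1.37, while the lymphoid chemokine Ccl21a fell in WT by 0.70. With 1 library left out, 4 to 5 rose in WT and 0 to 3 in Has2+/-, where none was called without library 7 or 10. In Has2+/- the call of Cxcl13 was lost without either of these (adjusted p up to 0.0738), that of Tnfsf13b in 11 of 19 alternatives (up to 0.193) and that of Lta in 8 (up to 0.174). In WT the Ltb call was lost without library 1, 4 or 6 (up to 0.118) and the Ccl21a call without library 1 (0.0525).

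Of 9 genes for antibody transport and Fc receptors, 8 were tested. In WT 6 rose and 1 fell, beside 8.65% of all genes called higher and 8.05% lower. In Has2+/- 2 rose and none fell, beside 1.85% higher and 0.952% lower. Pigr, the epithelial receptor that carries polymeric IgA and IgM into the airway lumen, was at 3010, 2105 and 2011 units in WT with ovalbumin against 808, 753 and 774 with saline, and at 2466, 2367 and 2002 in Has2+/- with ovalbumin against 578, 751 and 1045. It rose by 1.58 ± 0.22 (SE, adjusted p 0.00229) and by 1.56 ± 0.22 (0.0129), and libraries 3 and 8 again lay with the rest of their groups. Fcgr2b, the inhibitory IgG receptor, rose in both, by 1.61 (0.000525) and 1.20 (0.0124). In WT the activating receptors Fcgr1, Fcgr3 and Fcgr4 and their shared chain Fcer1g rose by 2.06, 1.45, 1.10 and 0.88, and Fcgrt, the recycling receptor of IgG, fell by 0.33. With 1 library left out, 5 to 6 rose in WT and 1 to 3 in Has2+/-. The Fcgrt call was lost without library 1, 3, 5 or 6 (adjusted p up to 0.139), that of Fcer1g without library 1 or 6 (up to 0.0554) and that of Pigr in Has2+/- without library 7 or 11 (up to 0.0658).

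T cell genes were read as markers of another lymphocyte. All 12 were above 0 in log2 change in both genotypes. In WT 5 rose (Trac by 0.94, Cd8a by 0.66, Cd3d by 0.62, Cd28 by 0.60 and Trbc2 by 0.55), beside 8.65% of all genes. In Has2+/- 1 rose (Cd28 by 0.78), beside 1.85%. With 1 library left out, the WT count ran from 0, without library 1 or 6, to 6, without library 3. In Has2+/- it ran from 0 to 1, and Cd28 remained called there only without library 1 or 3. Of 6 thymocyte genes 3 could be tested and none was called, and Ptcra was listed at 0 in all libraries. None of the 10 squamous epithelium genes was called in either genotype in the fit of all libraries, although their sums differed between libraries as given above. All 10 had log2 changes below 0 with ovalbumin in both genotypes. The medians were -3.16 in WT and -3.36 in Has2+/-, with a median SE of 2.20. With 1 library left out, 0 to 4 were called lower in WT and none in Has2+/-.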

How the data were processed

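RNA was extracted with Trizol from flash frozen lung and 500 ng per sample went into stranded libraries, per the labels' protocols, which name both rRNA depletion and poly-A purification. The genome build is mm10, per the submitters' processing notes; the tools for alignment and counting are not stated in these sources. The signal values are the authors' normalized expression values. Judged by the values, the authors had counted reads per gene and then quantile-normalized the libraries: the 12 sorted columns are identical (largest difference 0) and every value is a multiple of 1/12 within 1e-06, so that depth is unknown and low values are imprecise. Score columns (fold changes) and p-value columns are the authors' EDGE test, per the file headers, and are quoted only in the closing section. A neighbouring set of 12 columns of per-sample values was not used.

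Columns carry group codes and library numbers that match no title, so libraries were assigned to groups only. limma 3.58.1 in R 4.3.3 was run on log2(value + 1), trend and robust options on, 1 mean per group over all 12 libraries, for the 19017 genes whose mean reached 1 in any group (8 residual degrees of freedom, median prior 8.40). The two-sided p-values were corrected by the Benjamini-Hochberg method within each of 5 comparisons, threshold 0.05. A fold change on this scale understates changes of low genes. The script was tested on simulated data. The table was expected to hold values other than counts, and it does.

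Sequences are V exon coding sequences of GENCODE release M21, found for 218 of the 348 segments and all 43 members; identity was computed with Biopython 1.88 by global alignment. Genes are named in the text by rule: the 5 highest members per locus, leading segments of each library, called members, those next to the limit, the widest and narrowest spreads, constant genes, and in other lists the called and most abundant genes. Some further genes were named after their values were seen (Igkv17-121, Ighv1-82, Igkv3-5, Ms4a1 and those in counts of 5 or fewer). The members and lists were chosen with earlier results of these data known.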

Additional observations from a re-analysis of the deposited data

How the results depend on the processing

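The counts of called members depended on the settings. For ovalbumin in WT, 3 members were called in the fit of all libraries, 1 with a pseudocount of 5, 0 without the trend and robust options, 0 with only the groups compared, 17 without libraries 3 and 12, and 0 to 16 with 1 library left out. For ovalbumin in Has2+/-, 1 member was called, 0 with a pseudocount of 5, 0 without a filter on low values, 0 without the trend and robust options, and 0 to 2 with 1 library left out. Under ovalbumin, Has2+/- against WT gave 0 calls, 0 to 3 with 1 library left out and 3 without libraries 3 and 12. The cause of these shifts was not tested. Of the libraries left out together, 3 had the highest squamous epithelium sum with ovalbumin and 12 the lowest with saline. The share of all genes called without libraries 3 and 12 is not given here. Whether those counts reflect the members or a shift over all genes therefore cannot be told. Under saline and for the interaction, 0 members were called under every alternative run. No paired analysis was possible because the library numbers in the table match no sample title. For 44 calls of single genes (the called members, the called genes of the lists read beside them, and Ighv1-11 and Ighv6-3), 638 of 835 alternatives kept direction and side of the threshold, 197 were no longer past it and 0 reversed. Depth is unknown and the values of segments with near-copies may be split between them.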

Other observations

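The authors' deposited table, from their own EDGE test, holds FDR-corrected p-values for the same groups. At an FDR under 0.05, the authors' deposited table lists 12 of the 43 members between WT ovalbumin and WT saline, beside 3.45% of its 49585 genes. They are Ighv1-84, Ighv1-9, Ighv14-4, Ighv2-6, Ighv2-9-1, Ighv4-1, Igkv1-110, Igkv12-46, Igkv14-111, Igkv17-121, Igkv6-17 and Igkv8-16. Between Has2+/- ovalbumin and Has2+/- saline the authors' deposited table lists 4 members, Ighv1-66, Ighv14-2, Igkv5-39 and Igkv8-16, beside 0.95% of its genes. Between the genotypes the authors' deposited table lists Ighv1-84 under ovalbumin, beside 0.141% of its genes, and no member under saline, beside 0.0141%. All these shares are over 49585 genes, of which only 19017 reached a mean of 1 in any group. Every member had a mean of at least 10, so members and shares are not compared like with like. Igkv8-16 is listed in both genotypes there, and it was also the member called in both genotypes with limma. Both tests rest on the same libraries, so 1 is not independent evidence for the other. Its limma call was lost in 9 of 19 alternatives in WT and in 12 of 19 in Has2+/-.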
